A study of Mus musculus with 12 samples.

Results

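Glutathione synthesis, recycling and use and the transsulfuration pathway were followed through 9 genes in mouse hearts that expressed a dominant-negative form of the mitochondrial calcium uniporter (DN-MCU) and in hearts of wild-type (WT) littermates. The genes were taken by name, with earlier results of these data known, so their counts are descriptions and not blind tests of the pathway. They are Gclc, Gclm, Gss, Gsr, Gpx1, Gpx3, Gpx4, Cth and Cbs, 9 of the 18193 genes annotated on the array. Every probe set annotated with exactly 1 of these symbols was used, which gave 15 probe sets. Of these, 13 probe sets of 8 genes passed a filter on dim signals, which asked for at least 3 of the 12 values above the median of all values (3.35 on the log2 scale, here called the filter level), and both Cbs probe sets did not.

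RNA came from whole excised hearts of CD1 mice, an outbred stock, and was measured on 12 Affymetrix 3′ expression arrays with 500 ng of total RNA each. The groups were DN-MCU adults, WT adults, DN-MCU neonates and WT neonates, with 3 separately labelled biological replicates in each. Adult hearts were taken at 42 days of age from males, and neonatal hearts at 1 day of age with no sex given. The sources used here do not name the promoter that drove the DN-MCU construct, and no other allele or agent is named for any group. A whole heart holds muscle, vessel, connective tissue and blood cells, so fewer cells of a type and less RNA per cell cannot be told apart in these values.

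All 9 cardiomyocyte markers were above the filter level on every array, with a mean log2 signal between 14.5 and 14.9. These means overlapped between the adult groups, at 14.50 to 14.67 in DN-MCU adults and 14.58 to 14.85 in WT adults. The log2 of the markers' summed signal was 18.150 to 18.208 in DN-MCU adults and 18.214 to 18.335 in WT adults. In neonates it was 18.021 to 18.177 with DN-MCU and 18.134 to 18.172 in WT. The part that this adult shift of the summed signal has in the results was not tested. Mcu, the gene whose altered form was expressed, had 2 probe sets, of which 1 separated the genotypes, at 8.85, 9.64 and 10.41 in DN-MCU adults against 4.55, 2.45 and 3.06 in WT adults, and at 8.73, 8.44 and 9.28 in DN-MCU neonates against 2.90, 3.31 and 3.24 in WT neonates. Its difference was 6.28 on the log2 scale in adults (SE 0.52, limma adjusted p = 8.94e-05), and this probe set matched the genotype labels on all 12 arrays. The other Mcu probe set lay between 7.39 and 8.18 on all arrays. The array of DN-MCU adult 3 stood apart from the rest at 121.4 on the second principal component, where the other 11 lay between -50.89 and 24.42, and the adult arrays were more scattered than the neonatal ones. The median SD of a probe set was 0.400 in DN-MCU adults, 0.226 in WT adults, 0.141 in DN-MCU neonates and 0.132 in WT neonates. Because 1 estimate of spread was shared by all groups, adult results are also given with the adult arrays fitted alone.

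Glutathione is a tripeptide of glutamate, cysteine and glycine that is made in the cytosol by a pair of ATP-dependent enzymes, glutamate-cysteine ligase and glutathione synthetase. It gives electrons to the glutathione peroxidases, which reduce hydrogen peroxide and lipid peroxides, and it is returned to its reduced form by glutathione reductase with NADPH. Cysteine, the scarce building block, is taken up from outside the cell or made from methionine by transsulfuration, in which cystathionine beta-synthase and cystathionine gamma-lyase act in turn. In the heart these enzymes deal with peroxides released by the dense mitochondria of the muscle.

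In adult hearts all 8 measured genes had a higher mean with DN-MCU than in WT hearts, and 4 of them rose: Gss, Cth, Gclm and Gsr. This is 4 of 8 genes at a limma adjusted p under 0.05, where 3.42% of the 11807 genes tested were called higher and 5.11% were called in either direction. The 3 DN-MCU adults lay above the 3 WT adults for all 8 genes, against 10.3% of all genes tested, and below them for 0, against 8.14%. The median log2 difference of the 8 genes was 0.54, against 0.0023 over all genes tested. With the adult arrays fitted alone, 0 of the 8 genes passed with limma, when 0.551% of all genes did. With a block for the neonatal replicate numbers, which were taken to pair neonates, 1 of the 8 passed, when 2.87% of all genes did. Without DN-MCU adult 1, 1 of the 8 passed, when 3.57% of all genes did in either direction. Without WT adult 2, WT adult 3 or DN-MCU neonate 1, 2 passed, beside 2.82%, 2.68% and 3.9% of all genes in these fits. Without both DN-MCU adult 3 and WT adult 1, a setting chosen after the data were seen, 6 passed and so did 14.1% of all genes. An unadjusted limma p under 0.05 was reached with the adult arrays alone by 6 of the 8 genes and 10.9% of all genes, and in the fit to all 12 arrays by 7 of the 8 genes and 19.5% of all genes. Endothelial markers were lower in every DN-MCU adult, with the mean of all 5 at 8.6, 8.44 and 8.73 in DN-MCU adults against 8.89, 8.87 and 8.96 in WT adults. The log2 of their summed signal was 11.42 to 11.77 in DN-MCU adults and 11.80 to 11.87 in WT adults. The part of this shift in the values of the 8 genes was not tested.

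In neonatal hearts 0 of the 8 genes passed, when 0.0254% of all genes tested passed in either direction. An unadjusted limma p under 0.05 was reached by 2 of the 8, Gclc and Gpx3, and by 2.41% of all genes. With the neonatal arrays fitted alone, 0 of 8 genes passed, as did 0 of all genes tested, and 2 of the 8 genes and 8% of all genes had an unadjusted p under 0.05. By the brightest probe set of each gene, the DN-MCU neonates lay above the WT neonates without overlap for 2 genes, Gclc and Cth. This count is to be read against 9.13% of all genes, and 0 genes lay below, against 4.79%. Of the 8 neonatal differences 5 were above 0 and 3 below, with a median of 0.08, against 0.03 over all genes tested. The mean of the macrophage markers, 5 of 6 on the array, was lower in every DN-MCU neonate, at 6.28 to 6.37, against 6.46 to 6.71 in WT neonates. The log2 of their sum was 9.65 to 10.05 in DN-MCU neonates and 9.997 to 10.25 in WT neonates, and their part in the neonatal values was not tested.

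**Figure D1:**
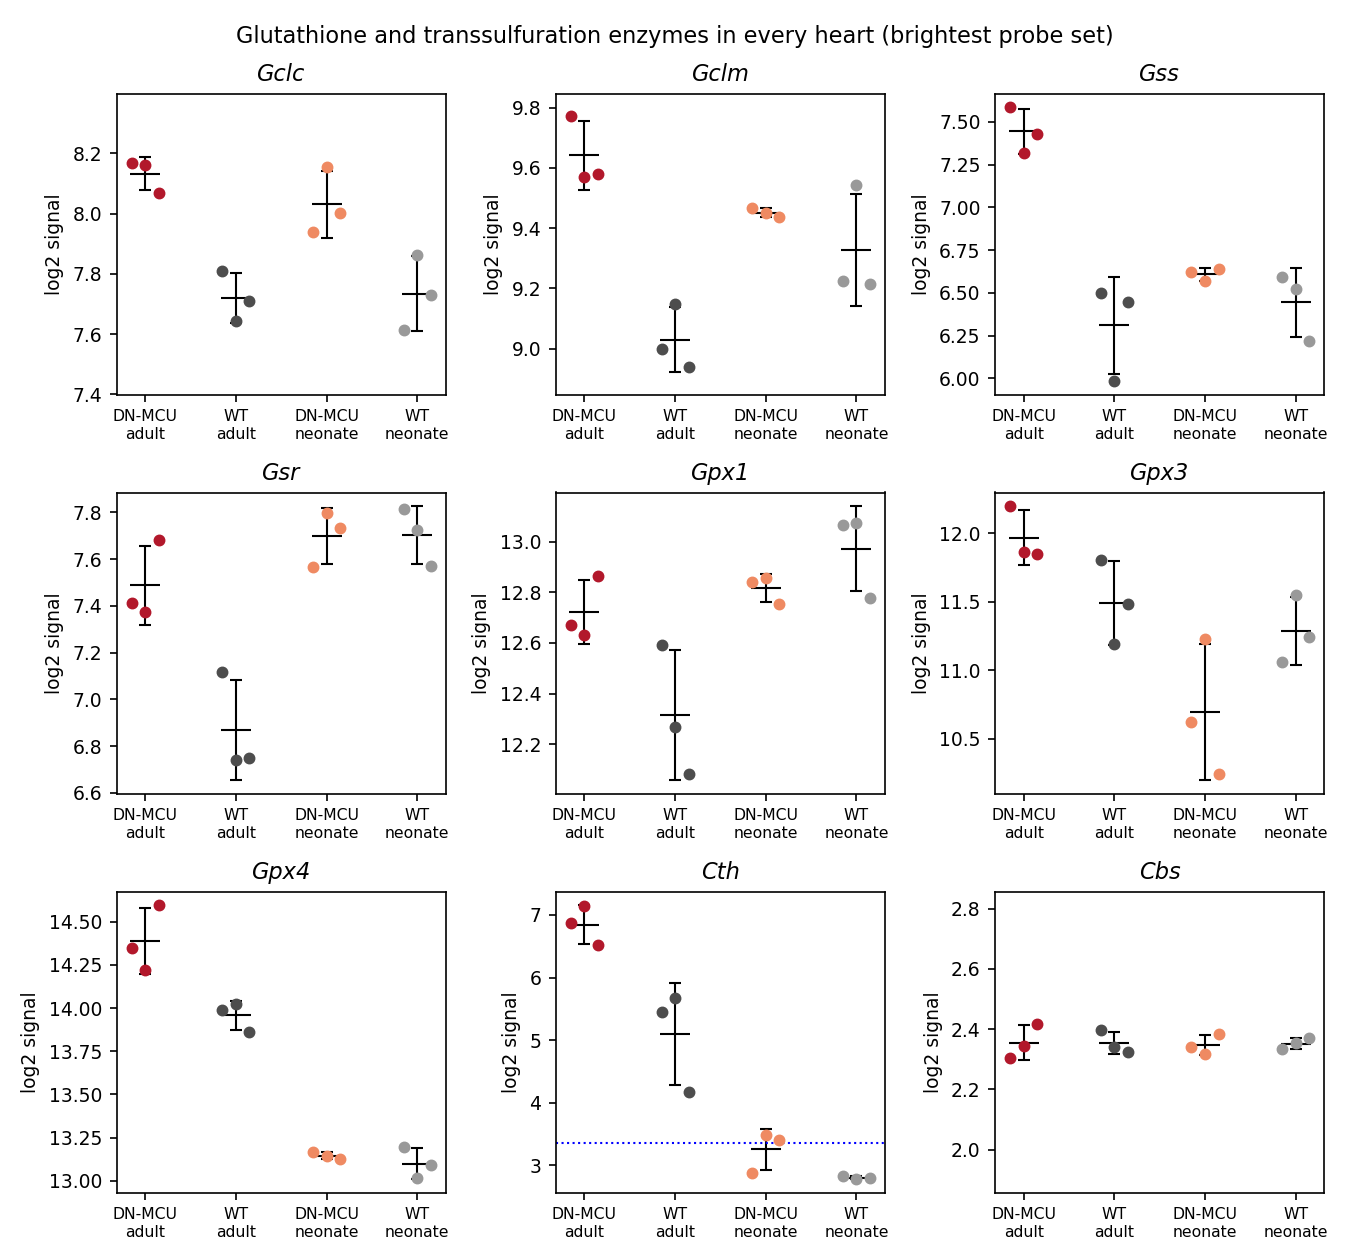
Log2 signal of the brightest probe set of each of the 9 genes in every heart. Points are single arrays, horizontal lines are group means with SD bars (n = 3 each), and the dotted line in the Cth panel is the filter level, with DN-MCU adults, WT adults, DN-MCU neonates and WT neonates from left to right; each panel has its own vertical range. DN-MCU adults lie above WT adults without overlap in every panel except that of Cbs, which lies between 2.30 and 2.42 on every array.

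Glutathione synthetase, Gss, adds glycine to the dipeptide in the last step of synthesis. Its brighter probe set gave log2 signals of 7.59, 7.32 and 7.43 in DN-MCU adults against 6.50, 5.98 and 6.44 in WT adults. Every DN-MCU adult was above every WT adult, and the gap between the groups was wider than the spread within either. The difference was 1.13 (SE 0.17, 2.20-fold, limma adjusted p = 0.00338). The same probe set in neonates gave 6.62, 6.57 and 6.64 with DN-MCU against 6.59, 6.52 and 6.22 in WT, with overlapping groups and a difference of 0.16 (SE 0.17, adjusted p = 0.9999).

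The second Gss probe set had the same sign at both ages. Its signals were 7.75, 7.24 and 7.48 in DN-MCU adults against 6.23, 5.82 and 5.61 in WT adults, a difference of 1.60 (SE 0.20, 3.04-fold, limma adjusted p = 0.00117). In neonates it gave 6.90, 6.90 and 6.59 with DN-MCU against 5.96, 6.26 and 6.08 in WT, with no overlap. That difference was 0.70 (SE 0.20, unadjusted p = 0.00468, adjusted p = 0.9999). The 2 probe sets thus gave neonatal differences of unequal size, and neither passed. Gss was the member whose adult call held most often, in 21 of 22 alternative settings; in the exception, the adult arrays fitted alone, its adjusted p was 0.104.

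Glutamate-cysteine ligase performs the first and rate-limiting step and is built from a catalytic subunit, Gclc, and a modifier subunit, Gclm, which raises the catalytic subunit's affinity for glutamate. The brighter Gclm probe set read 9.77, 9.57 and 9.58 in DN-MCU adults against 9.0, 9.15 and 8.94 in WT adults. The groups were well apart, and the difference was 0.61 (SE 0.13, 1.53-fold, limma adjusted p = 0.0269). This call did not hold with a block for the neonatal replicate numbers (adjusted p = 0.0695), nor with the adult arrays fitted alone (adjusted p = 0.24), nor with the median of both probe sets (0.49, adjusted p = 0.416). It was also lost without DN-MCU adult 1 (0.0779), WT adult 1 (0.0584), WT adult 2 (0.0546), WT adult 3 (0.110) or DN-MCU neonate 1 (0.0512), all adjusted p values.

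Gclm neonates gave 9.47, 9.45 and 9.44 with DN-MCU against 9.22, 9.54 and 9.22 in WT. WT neonate 2 lay above all DN-MCU neonates, and the difference of 0.12 did not pass (SE 0.13, adjusted p = 0.9999). The second Gclm probe set was uneven among adults, at 7.83, 7.97 and 5.89 with DN-MCU against 5.95, 7.76 and 6.85 in WT. DN-MCU adult 3 and WT adult 1 were low on it, the groups overlapped, and the adult difference was 0.38 (SE 0.54, adjusted p = 0.787). In neonates this probe set gave 8.09, 8.06 and 8.27 with DN-MCU against 7.81, 7.90 and 7.99 in WT. These groups did not overlap, and the difference of 0.24 did not pass (SE 0.54, limma adjusted p = 0.9999).

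The brighter Gclc probe set read 8.17, 8.16 and 8.07 in DN-MCU adults against 7.81, 7.64 and 7.71 in WT adults, with tight groups and no overlap. The difference of 0.41 did not pass (SE 0.12, 95% interval 0.14 to 0.69, limma adjusted p = 0.0962). Neonates gave 7.94, 8.15 and 8.0 with DN-MCU against 7.61, 7.86 and 7.73 in WT. These groups did not overlap either, and the neonatal difference was 0.30 (SE 0.12, unadjusted p = 0.0358, adjusted p = 0.9999). Gclc had the smallest unadjusted p among the neonatal differences of the 8 genes. Its second probe set gave smaller differences of the same sign, 0.20 in adults (adjusted p = 0.515) and 0.09 in neonates, with overlapping groups at both ages.

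The upstream sequences of a pair of synthesis genes are shown because Gclm is a textbook target of NRF2 (gene Nfe2l2), a factor that binds the antioxidant response element, and because Gss had the firmest adult call. RefSeq windows of 250 bases before the start of transcription and 50 bases after it were found for 6 of the 9 genes, all but Gclc, Gsr and Cth. The core of the element, TGACNNNGC on either strand, occurred in the windows of 1 of these 6 genes, Gclm, and of 14% of all 26994 genes with a window (12.4% of 32817 windows). The response element of C/EBP and ATF factors, TGATGNAA on either strand, occurred in 0 of the 6 and in 4.51% of all genes (3.97% of windows). No window of these 6 genes held both motifs, so no match overlapped another. The 250 bases before the start are printed 5′ to 3′ on the gene's strand, from build GRCm38.p6, at chr3:122245307-122245556 on the plus strand for Gclm and chr2:155592811-155593060 on the minus strand for Gss. Capitals mark the match, which begins at base -134 of Gclm on the opposite strand (GCACCGTCA as printed). A match is a description of the letters and not evidence of binding.
Gclm: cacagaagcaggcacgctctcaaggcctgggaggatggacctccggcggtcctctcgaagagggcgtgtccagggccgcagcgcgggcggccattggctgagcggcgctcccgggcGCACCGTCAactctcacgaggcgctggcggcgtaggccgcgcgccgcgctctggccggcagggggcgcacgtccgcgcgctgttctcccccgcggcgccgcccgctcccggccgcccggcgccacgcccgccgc
Gss: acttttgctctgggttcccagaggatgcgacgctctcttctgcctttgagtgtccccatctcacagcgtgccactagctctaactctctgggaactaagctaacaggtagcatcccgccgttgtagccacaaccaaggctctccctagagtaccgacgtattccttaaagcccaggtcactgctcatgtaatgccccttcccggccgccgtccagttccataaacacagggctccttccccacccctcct

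Glutathione reductase, Gsr, regenerates reduced glutathione from its disulfide. The brighter probe set read 7.41, 7.37 and 7.68 in DN-MCU adults against 7.12, 6.74 and 6.75 in WT adults. The highest WT adult lay below the lowest DN-MCU adult, and the difference was 0.62 (SE 0.15, limma adjusted p = 0.0466). This was the least firm of the 4 adult calls and held in 7 of 22 alternative settings. The adjusted p was 0.118 with a block for the neonatal replicate numbers and 0.327 with the adult arrays fitted alone. It stayed under 0.05 without DN-MCU adult 2 or WT adult 1, and was lost without any other array, with adjusted p values up to 0.172. Gsr neonates gave 7.57, 7.80 and 7.73 with DN-MCU against 7.82, 7.72 and 7.57 in WT, and the difference was -0.0038. The second Gsr probe set gave 0.31 in adults (adjusted p = 0.694) and was low in replicate 2 of the neonates of both genotypes, at 5.36 with DN-MCU and 5.25 in WT.

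**Figure D2:**
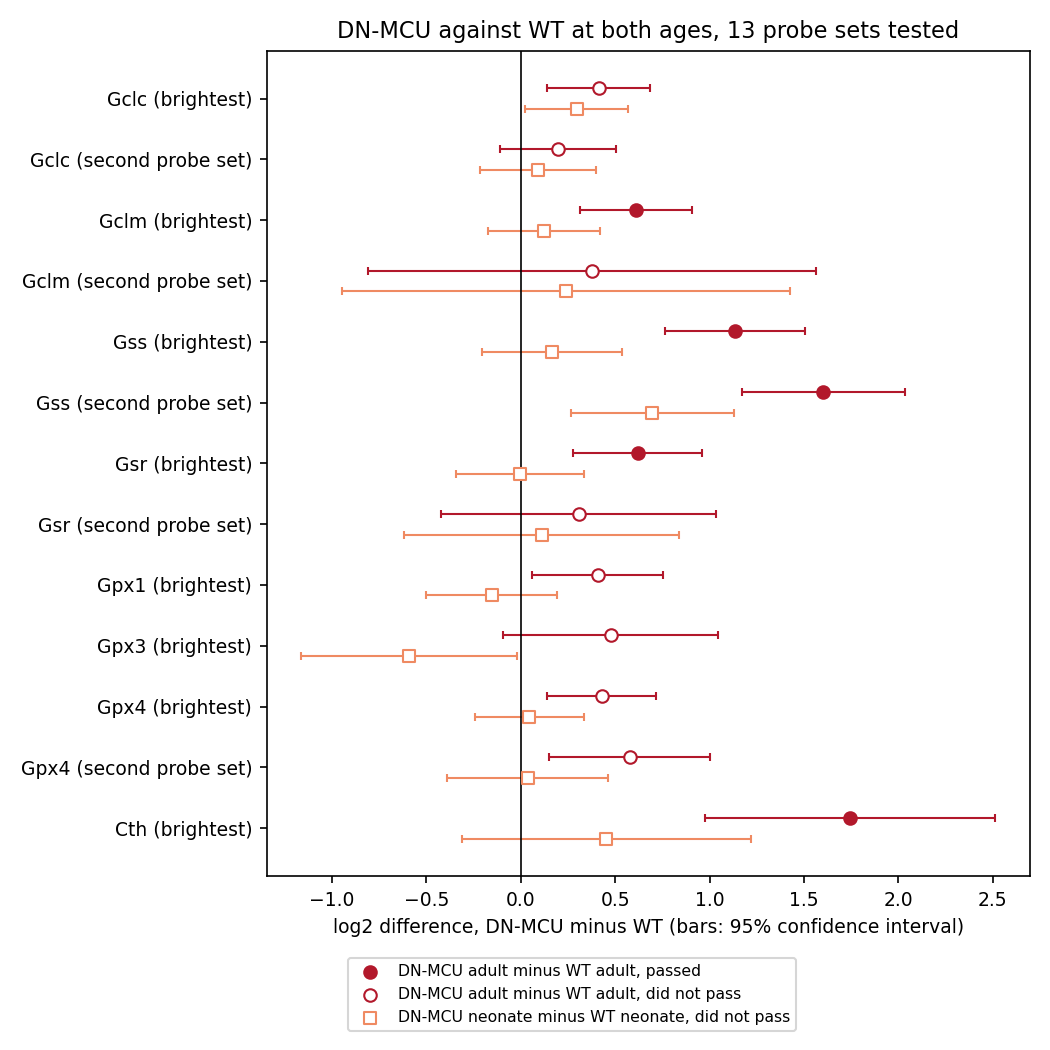
Log2 difference, DN-MCU minus WT, of each of the 13 probe sets tested, in adults and in neonates. Points are estimates from the fit to all 12 arrays and bars are 95% confidence intervals; filled points passed. The adult estimates are all above 0, while the neonatal ones lie on both sides of 0.

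The glutathione peroxidases differ in place and substrate: Gpx1 is the abundant cytosolic and mitochondrial enzyme, Gpx3 is secreted, and Gpx4 reduces lipid peroxides within membranes. None of the 3 passed between DN-MCU and WT hearts at either age, with limma, although all 3 were higher in DN-MCU adults without overlap.

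Gpx4 had log2 signals of 14.35, 14.22 and 14.60 in DN-MCU adults against 13.99, 14.02 and 13.86 in WT adults. The difference was 0.43 (SE 0.13, limma adjusted p = 0.0991), with the highest value in DN-MCU adult 3. In neonates it gave 13.17, 13.14 and 13.13 with DN-MCU against 13.19, 13.01 and 13.09 in WT, overlapping groups that differed by 0.05. The second Gpx4 probe set gave 0.58 in adults, also without overlap (adjusted p = 0.133), and 0.04 in neonates.

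Gpx1 read 12.67, 12.63 and 12.87 in DN-MCU adults against 12.59, 12.27 and 12.08 in WT adults. WT adult 1 lay just below the lowest DN-MCU adult, and the difference of 0.41 did not pass (SE 0.16, limma adjusted p = 0.196). Neonates gave 12.84, 12.86 and 12.76 with DN-MCU against 13.07, 13.07 and 12.78 in WT, a difference of -0.15 with overlap. Gpx1 is also abundant in red blood cells. Of 7 erythroid markers listed, 4 were on the array and 2 or 3 of these were above the filter level, with a mean log2 signal of 4.35 to 5.73 in DN-MCU adults, 4.84 to 5.37 in WT adults, 5.14 to 5.48 in DN-MCU neonates and 5.51 to 6.11 in WT neonates. The log2 of their summed signal was 7.69 to 9.93 in DN-MCU adults, 8.52 to 9.56 in WT adults, 8.73 to 9.38 in DN-MCU neonates and 9.50 to 10.65 in WT neonates. Alas2 and Slc4a1 carried this signal, while Hba-a1, a globin gene, lay at background with group means of 2.07 to 2.15. Probe sets annotated with several genes were not read, so this low Hba-a1 value does not show how much blood RNA was present. The marker means overlapped between the adult groups and were lower in DN-MCU neonates than in WT neonates. Their part in the Gpx1 values was not tested.

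Gpx3 was 12.20, 11.86 and 11.85 in DN-MCU adults against 11.80, 11.19 and 11.48 in WT adults, a difference of 0.48 (SE 0.26, limma adjusted p = 0.376). Neonatal values were 10.62, 11.23 and 10.24 with DN-MCU against 11.06, 11.55 and 11.24 in WT. DN-MCU neonate 2 lay among the WT values, and the difference of -0.59 did not pass (SE 0.26, unadjusted p = 0.0437, adjusted p = 0.9999). Of the 8 genes only Gpx3 had both an unadjusted p under 0.05 and a lower mean in DN-MCU neonates. All 6 epicardial and mesothelial markers were on the array, and their mean was also lower in every DN-MCU neonate, at 7.16, 7.19 and 6.83 in DN-MCU neonates against 7.61, 8.31 and 7.60 in WT neonates. In adults their means were 5.14, 5.48 and 5.16 with DN-MCU and 7.04, 4.90 and 5.36 in WT, so WT adult 1 was high. The log2 of their summed signal was 8.54 to 8.93 in DN-MCU adults, 8.52 to 10.84 in WT adults, 9.61 to 10.09 in DN-MCU neonates and 10.58 to 11.38 in WT neonates. Their part in the Gpx3 values was not tested.

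**Figure D3:**
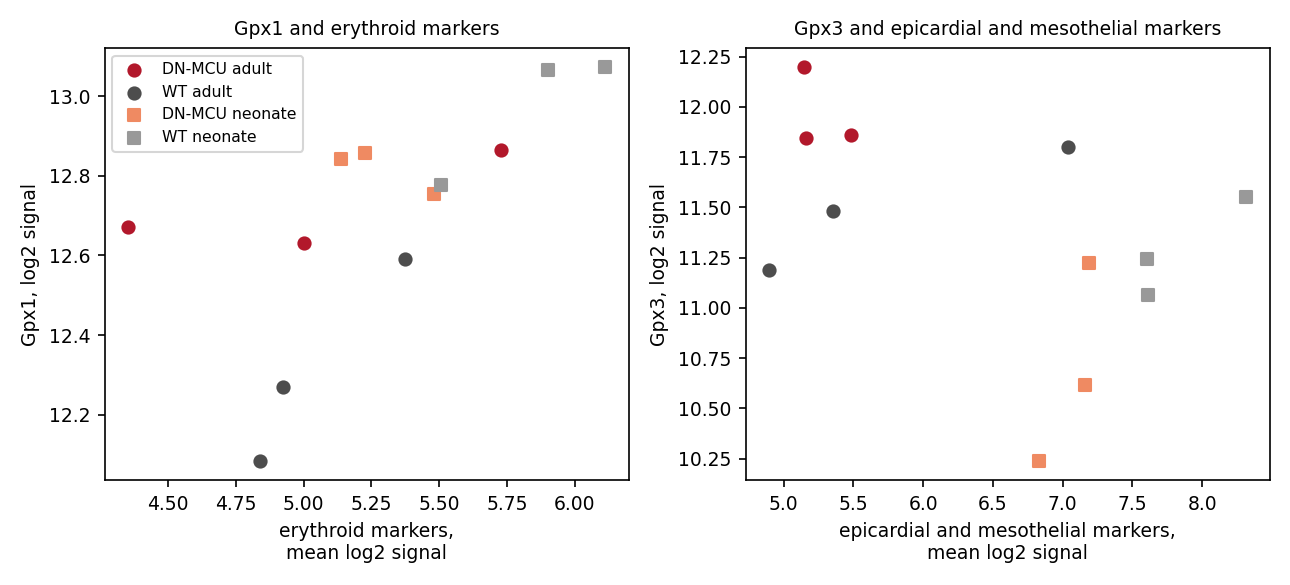
Log2 signal of Gpx1 against the mean log2 signal of the erythroid markers, and of Gpx3 against that of the epicardial and mesothelial markers, with 1 point per array and the 4 groups in colour. In neonates the marker means are lower with DN-MCU than in WT in both panels; in adults the groups overlap.

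Cystathionine gamma-lyase, Cth, releases cysteine in the last step of transsulfuration and can also produce hydrogen sulfide. Its single probe set gave 6.87, 7.14 and 6.52 in DN-MCU adults against 5.45, 5.68 and 4.17 in WT adults. All DN-MCU adults were above all WT adults, with WT adult 3 well below the other WT hearts. The difference of 1.74 was the largest among the 8 genes (SE 0.35, 3.35-fold, limma adjusted p = 0.0175). The adjusted p was 0.0551 with a block for the neonatal replicate numbers, 0.22 with the adult arrays fitted alone and 0.0507 without DN-MCU adult 1. Without WT adult 3 the difference was 1.28 and still passed.

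Cth signals in neonates were near background, at 2.88, 3.48 and 3.41 with DN-MCU against 2.82, 2.78 and 2.80 in WT, where the filter level is 3.35. The groups did not overlap, but all WT neonates were below the filter level, and the difference of 0.45 had an adjusted p of 0.9999. Cth is also strongly expressed in liver. Of 7 hepatocyte markers listed 6 were on the array, and only 1 of these, Ttr, was above the filter level; the mean of the 6 was 2.79 to 3.23 in DN-MCU adults and 2.46 to 2.55 in WT adults. The log2 of their sum was 6.35 to 8.09 in DN-MCU adults and 5.17 to 5.36 in WT adults. Alb, a defining liver transcript, lay at background, with a mean of 2.33 in DN-MCU adults and 2.34 in WT adults. The adipocyte markers, 5 of 7 on the array, had means of 7.01, 8.21 and 5.82 in DN-MCU adults and 7.70, 7.01 and 7.35 in WT adults, and the groups overlapped. The log2 of their sum was 12.27 to 14.79 in DN-MCU adults and 14.03 to 14.82 in WT adults. The part of either marker list in the Cth values was not tested.

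Cystathionine beta-synthase, Cbs, which joins homocysteine and serine in the first step, was not detected above the filter level. Its 2 probe sets lay between 2.25 and 2.42 on all 12 arrays and were not tested.

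Over the 4 groups the levels of the brighter probe sets fell into several orders. For Gss and Gclm the DN-MCU adults were highest and did not overlap the next group, the DN-MCU neonates, while DN-MCU and WT neonates overlapped. For Gclc the DN-MCU adults and DN-MCU neonates overlapped each other, and both lay above the WT hearts of the same age. For Gsr and Gpx1 the WT adults were lowest, without overlap with the next group, and the other 3 groups followed with overlap between neighbours. For Gpx4 and Cth the order was DN-MCU adult, WT adult, DN-MCU neonate and WT neonate, and only the neonatal Gpx4 groups overlapped. Gpx3 had the same 2 adult groups on top, but its DN-MCU neonates were the lowest and overlapped their neighbours, the WT neonates, which in turn overlapped the WT adults. The dimmer probe sets gave other orders for Gclm, with DN-MCU neonates highest and DN-MCU adults below WT neonates, for Gsr, with WT adults second and WT neonates lowest, and for Gclc, with DN-MCU neonates highest. On the dimmer probe sets of Gss and Gclm, unlike the brighter ones, the DN-MCU neonates lay above the WT neonates without overlap.

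The DN-MCU effect in adults exceeded that in neonates for all 8 genes, but 0 of 8 differences of effects passed with limma, when 0.949% of all genes did, 0.711% with a higher effect in adults. An unadjusted p under 0.05 was reached by 6 of the 8 genes and by 9.82% of all genes. For Gss the adult effect exceeded the neonatal one by 0.97 (SE 0.24, unadjusted p = 0.00194, adjusted p = 0.124). For Gpx3, where the effects had opposite signs, the difference was 1.07 (unadjusted p = 0.0143, adjusted p = 0.332). For Cth it was 1.29 (adjusted p = 0.407), with neonatal values near background. For Gclc it was 0.12 (adjusted p = 0.94), the smallest of the 8. The Gss difference passed in 2 alternative settings, with array weights and without the 2 arrays of lowest array weight, DN-MCU adult 3 (0.0728) and WT adult 1 (0.251).

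**Figure D4:**
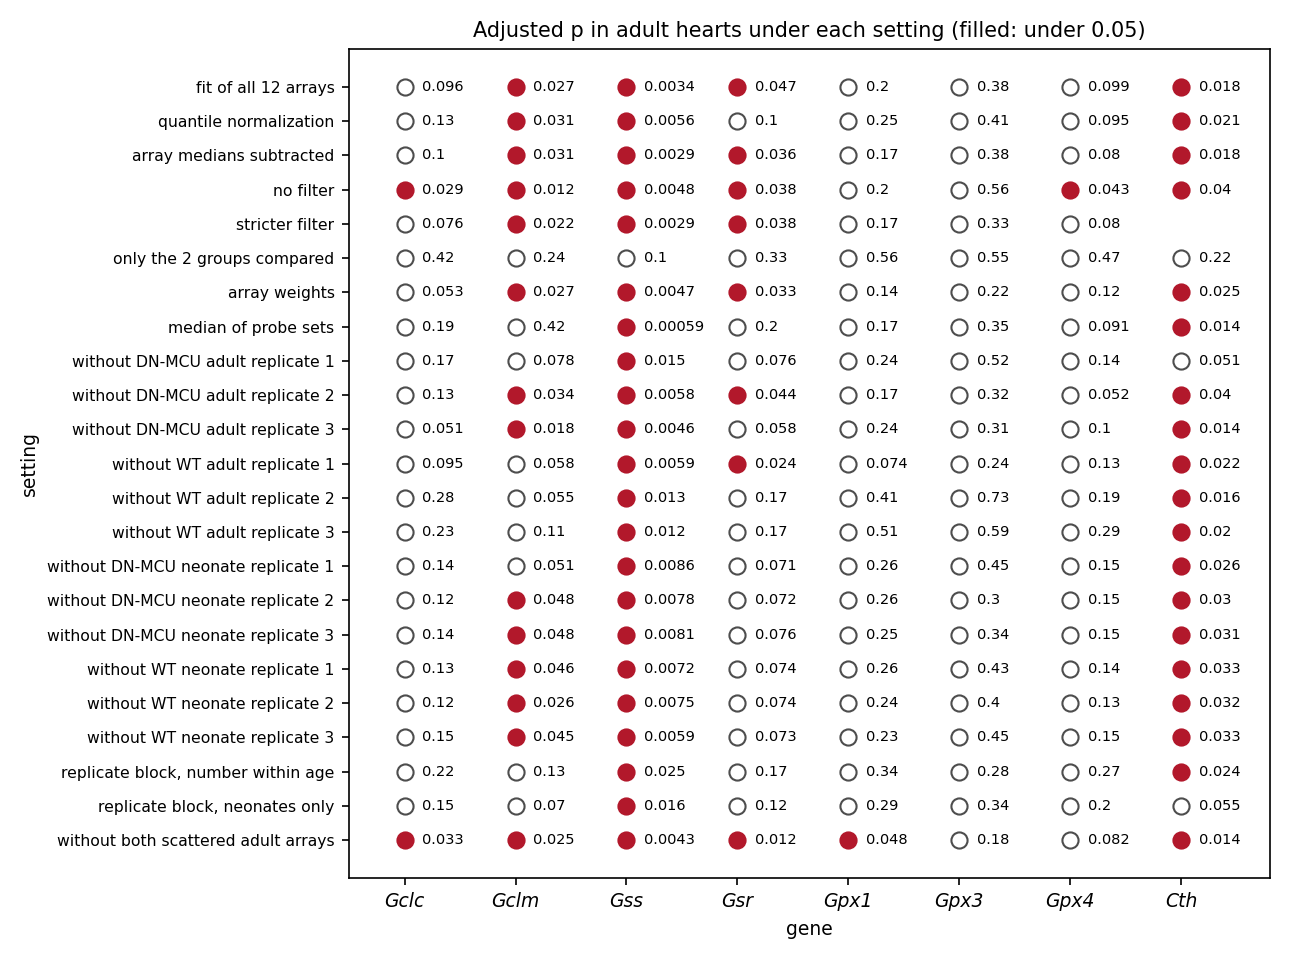
Limma adjusted p of DN-MCU against WT in adults for each of the 8 genes (columns) under each alternative setting (rows), with values under 0.05 filled. Gss passes in every setting shown except the fit of the adult arrays alone, Cth passes in most, and the calls of Gclm and Gsr come and go.

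WT adults were set against WT neonates to show where the genes stand in normal growth. Of the 8 genes, 2 were higher in WT adults, Cth and Gpx4, and 2 were lower, Gsr and Gpx1, when 17.2% of all genes tested were called higher, 27.8% lower and 45% in either direction. The 2 age groups did not overlap for 2 genes that were higher in WT adults, Gpx4 and Cth, and 3 that were lower, Gsr, Gpx1 and Gclm, against 25.6% higher, 41.5% lower and 67.1% in either direction of all genes. Gpx4 rose by 0.86 in WT adults relative to WT neonates (SE 0.13, 1.81-fold, limma adjusted p = 0.000363), and its second probe set by 0.83 (adjusted p = 0.00492). Cth rose by 2.30 (SE 0.35, adjusted p = 0.000353), a value with no meaningful fold because the WT neonates were below the filter level. Gpx1 was lower in WT adults by a log2 difference of -0.66 (SE 0.16, adjusted p = 0.00601). Gsr was lower by its brighter probe set at -0.83 (SE 0.15, adjusted p = 0.00127), but its second probe set had the opposite sign at 0.54 (adjusted p = 0.212). With the median of the Gsr probe sets the age difference was -0.15 and did not pass (adjusted p = 0.552). Gclm was lower in all WT adults than in any WT neonate, but its difference of -0.30 did not pass (adjusted p = 0.0945). With array medians subtracted the Gclm difference was -0.43 and passed (adjusted p = 0.0273). The same WT adults are the controls of the DN-MCU adults.

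The genes whose pattern over the 12 arrays was most like that of Gss, the member with the smallest adult p, were Thbs4 (Pearson r = 0.953), Rhbdd1 (0.948) and Hacd4 (0.940). The arrays share group differences, so these values describe the pattern of the 4 groups as much as single hearts. For Gclc, the member with the smallest neonatal p, they were Slc7a3 (r = 0.956), a transporter of cationic amino acids, Phgdh (0.909), the first enzyme of serine synthesis, and Asns (0.908), which makes asparagine.

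The genes around these enzymes were read through 8 lists with 102 genes, of which 92 were on the array and 78 were measured. In DN-MCU adults 12 of the 78 rose and 0 fell with limma, against 3.42% called higher and 1.69% called lower of all genes tested. Without Gsta2, which reached the filter level in DN-MCU adults alone, 11 of 77 rose. Without DN-MCU adult 2, 15 of the 78 rose and 5 fell, when 5.77% of all genes were called higher and 2.42% lower. Without DN-MCU adult 3, 12 rose and 7 fell, when 5.17% of all genes were called higher and 5.34% lower. Without WT adult 3, 7 rose and 0 fell, when 1.97% of all genes were called higher and 0.711% lower. The median difference of the 78 was 0.10. With a block for the neonatal replicate numbers 7 of the 78 passed, when 2.87% of all genes did. With the adult arrays fitted alone 4 of the 78 passed, when 0.551% of all genes did: Chac1, Atf4, Ddit3 and Trib3. In DN-MCU neonates 1 of the 78 rose, Chac1, and 0 fell, against 0.0169% called higher and 0.00847% called lower of all genes.

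Glutathione breakdown had 2 of 7 measured genes higher in DN-MCU adults and a list median of -0.29. Of the 7 adult differences 3 were above 0 and 4 below, with Chac2 at -0.84 (limma adjusted p = 0.105). Chac1 encodes an enzyme that cleaves glutathione inside the cell. It gave 10.33, 10.49 and 11.03 in DN-MCU adults against 6.92, 7.0 and 5.44 in WT adults, and 7.37, 8.62 and 6.63 in DN-MCU neonates against 2.87, 2.55 and 3.56 in WT neonates. The groups were far apart at both ages. The difference was 4.17 in adults (SE 0.53, limma adjusted p = 0.00171) and 4.55 in neonates (SE 0.53, adjusted p = 0.0400). The adult call held in all 22 alternative settings and the neonatal call in 6 of 22, with an adjusted p of 0.0791 with a block for the neonatal replicate numbers and 0.265 with the neonatal arrays fitted alone. The neonatal call held when DN-MCU adult 3, WT adult 3 or DN-MCU neonate 3 was left out and was lost without any other array, with adjusted p values up to 0.209. WT neonates were near or below the filter level. Lap3, a leucine aminopeptidase, rose by 0.64 in adults (SE 0.14, adjusted p = 0.0283, 0.0516 with the block), a call also lost without DN-MCU adult 1, WT adult 2, WT adult 3 or DN-MCU neonate 1, with adjusted p values up to 0.120.

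The upstream bases of Chac1 are shown for comparison with Gclm and Gss, because the C/EBP-ATF response element sequence occurred there. It begins at base -193 and reads TTGCATCA on the printed strand. Among the 12 pathway genes that rose in adults, 10 had a RefSeq window and 2 held this motif, Chac1 and Trib3, against 4.51% of all genes with a window. The Trib3 match begins at base 14, after the start of transcription, and so is not upstream. The antioxidant response element core was held by 2, Abcc4 and Sesn2, against 14% of all genes. No test was run on these counts. The bases are at chr2:119350992-119351241 on the plus strand of GRCm38.p6, with the motif in capitals.
Chac1: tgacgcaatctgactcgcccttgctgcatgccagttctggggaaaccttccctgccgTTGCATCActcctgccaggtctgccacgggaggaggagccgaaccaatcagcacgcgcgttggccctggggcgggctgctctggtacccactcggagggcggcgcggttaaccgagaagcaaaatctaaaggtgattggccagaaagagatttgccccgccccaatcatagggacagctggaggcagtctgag

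Cystine and glutathione transport had 3 of 7 measured genes higher in DN-MCU adults and a median of 0.33. Slc3a2 encodes the heavy chain that carries several amino acid transporters to the cell surface, the cystine exchanger among them. It gave 10.19, 9.88 and 10.68 in DN-MCU adults against 8.93, 8.61 and 8.56 in WT adults, a difference of 1.55 (SE 0.24, limma adjusted p = 0.00446). Slc25a39, which carries glutathione into mitochondria, read 14.34, 14.07 and 14.76 in DN-MCU adults against 13.64, 13.45 and 13.39 in WT adults. Its difference was 0.89 (SE 0.18, adjusted p = 0.0168, 0.0505 with a block for the neonatal replicate numbers), and the call was lost without WT adult 2 (0.0664) or WT adult 3 (0.0726). Abcc4, an exporter of organic anions, rose by 1.73 (SE 0.23, adjusted p = 0.00214). The groups did not overlap for any of these 3 genes. Slc7a11, the light chain of the cystine exchanger, was near background and did not pass in adults (-0.26, adjusted p = 0.706); it was chosen to be named after its value was seen.

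Regulators of these genes had 4 of 14 members higher in DN-MCU adults and a median of 0.46. Atf4, a transcription factor of the integrated stress response, read 11.91, 11.70 and 11.42 in DN-MCU adults against 9.81, 10.03 and 9.94 in WT adults, a difference of 1.75 (SE 0.23, limma adjusted p = 0.00205). Trib3, a pseudokinase, read 11.30, 10.84 and 12.07 in DN-MCU adults against 5.45, 5.34 and 5.24 in WT adults, a difference of 6.06 (adjusted p = 3.08e-05). Both genes were far above the WT range in every DN-MCU adult. Ddit3, which encodes the factor CHOP, rose by 2.08 with its brightest probe set (adjusted p = 0.00327), but with the median of its probe sets the difference was 1.21 and did not pass (adjusted p = 0.103). Sesn2, a stress-induced inhibitor of growth signalling, rose by 1.20 (adjusted p = 0.00282). In neonates none of the 14 passed. However, 4 of them, Trib3, Ddit3, Atf4 and Sesn2, lay above the WT neonates without overlap, against 9.13% of all genes. None lay below, against 4.79%. Trib3 read 7.35, 8.80 and 6.90 in DN-MCU neonates against 4.61, 4.62 and 4.63 in WT neonates, a difference of 3.06 (limma adjusted p = 0.0757). The neonatal difference was 1.40 for Ddit3 (adjusted p = 0.553) and 0.44 for Sesn2 (adjusted p = 0.9999). Atf4 gave 10.32, 11.10 and 10.12 in DN-MCU neonates against 9.84, 9.83 and 9.78 in WT neonates, with DN-MCU neonate 2 the highest. Nfe2l2, which encodes NRF2, did not pass in adults (0.20, adjusted p = 0.475); it too was chosen to be named after its value was seen.

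The remaining lists held few calls in DN-MCU adults. Among glutathione S-transferases, which conjugate glutathione to other molecules, the 1 of 18 called was Gsta2 (1.17, SE 0.26, limma adjusted p = 0.0276, 0.0829 with a block for the neonatal replicate numbers and 0.051 with no filter). It gave 4.39, 4.70 and 3.44 in DN-MCU adults against 3.04, 2.98 and 3.00 in WT adults, and every array outside the DN-MCU adults was below the filter level. It entered the test only through the group where it is high, so its call supports nothing about the list. The methionine cycle had 1 of 9, Srm, the spermidine synthase (0.96, SE 0.24, adjusted p = 0.0440, 0.0845 with the block). NADPH supply had 1 of 8, Me2, a mitochondrial malic enzyme (0.85, adjusted p = 0.0260, 0.0614 with the block and 0.118 with the median of its probe sets). The calls of these 3 genes were also lost without DN-MCU adult 1 or WT adult 3 and, depending on the gene, without other arrays, with adjusted p values up to 0.166. None of the 6 peroxidase partners and none of the 9 genes of cysteine use and sulfide oxidation passed, with medians of 0.11 and -0.15. The NADPH supply list had a median of -0.13. In it 3 of 8 genes were lower in DN-MCU adults without overlap, against 8.14% of all genes, and 1 was higher, against 10.3%. The lower ones were Idh1 (-0.50, limma adjusted p = 0.0647), Idh2 (-0.41, 0.0953) and Nnt (-0.53, 0.115), and none of them passed.

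**Figure D5:**
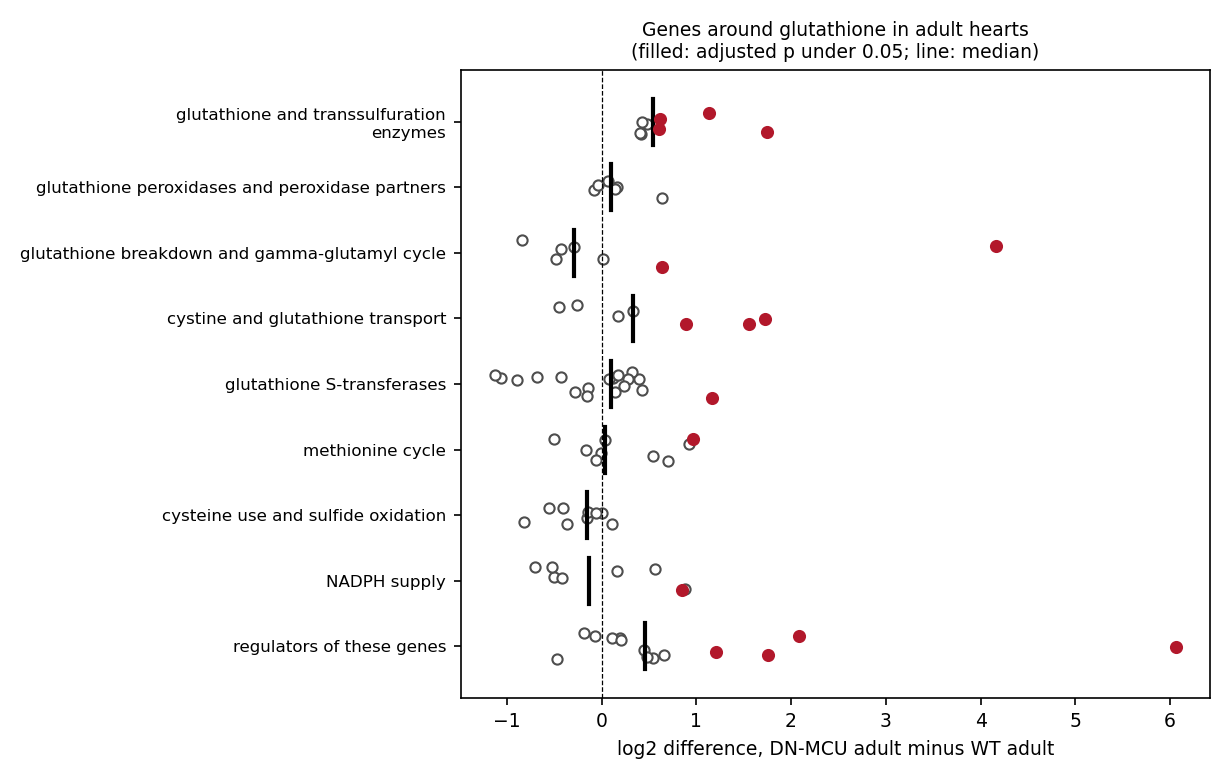
Log2 difference, DN-MCU adult minus WT adult, of every measured gene of the 8 lists around glutathione and of the 8 measured enzymes. Each point is a gene, filled where the limma adjusted p is under 0.05, and the vertical line of each list is its median. Trib3 at 6.06 and Chac1 at 4.17 lie farthest to the right.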

How the data were processed

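Whole-heart RNA of 12 mice was hybridized to Affymetrix 3′ arrays. The authors deposited log2 values of 45101 probe sets in 1 table. Array medians were near each other but did not overlap between ages, at 3.41 to 3.46 in adults and 3.24 to 3.32 in neonates. Upper quartiles went the other way, at 6.99 to 7.25 in adults and 7.33 to 7.40 in neonates. That the scale is log2 follows from the values. How they were normalized is not given in the sources used, and the submitters' processing notes name Partek without a version or a role. Array signals carry no read depth, so the 3 arrays per group limit the precision.

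The 64 control probe sets were removed, and a probe set was kept if the 3rd highest of its 12 values exceeded the overall median (3.35 on the log2 scale). This left 24176. Gene symbols came from the platform annotation: 34945 probe sets had 1 gene, 932 several and 9160 none. IDs of 34754 probe sets matched the reference gene table, which changed 0 symbols. The 4 group means were fitted to the 12 arrays in limma 3.58.1 (R 4.3.3), with Benjamini-Hochberg adjustment over all probe sets kept. An adjusted p under 0.05 passed. The fit was also run on simulated normal data in which each probe set had the same spread on all 12 arrays. That run cannot check p-values where the spread differs between groups, as it does here. p-values measure the spread between separately labelled replicates. A gene was represented by its brightest probe set over all arrays (11807 genes), and levels of different probe sets are not compared. Intervals are at 95%.

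The members and lists were chosen with earlier results of these data known. All member probe sets and Mcu are reported. Of the other lists, up to 4 genes per list that passed at either age are named, by smallest p, together with the 3 genes most alike in pattern to each of 2 members. Slc7a11, Nfe2l2, Chac2, Idh1, Idh2, Nnt, Gsta3, Gstt1, Gstm1 and Gstt3 were named outside this rule.

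Replicate numbers are shared between groups. Deviations from group means of same-numbered DN-MCU and WT arrays correlated at 0.133, 0.223 and 0.283 in neonates, so the numbers were taken to pair neonates, although their meaning is not in the labels. In adults they correlated at -0.381, 0.410 and -0.428, so adults were not taken as paired. The main fit has no block, and blocked values stand beside the results they change. Alternatives were centring on array medians, quantile normalization, a stricter filter (log2 7.25) or none, only the groups compared, array weights, the median of a gene's probe sets, each array left out, replicate blocks, and DN-MCU adult 3 and WT adult 1 left out together, the last added after the data were seen. For the other pathway genes and the Mcu check, several of these were also added then.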

Additional observations from a re-analysis of the deposited data

How the results depend on the processing

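No difference of a called member or pathway gene reversed its sign under any alternative run. Of the 8 enzymes, the number passing in adults was 4, beside 5.11% of all genes. It was 0 with only the 2 groups compared (0.551% of all genes) and 2 with the median of probe sets (5.44%). With each array left out it was 1 to 4, the lowest without DN-MCU adult 1, beside 2.68% to 10.5% of all genes. With the replicate number within age as a block, which also pairs the adults, it was 2, beside 2.52% of all genes. With the block in neonates only it was 1, beside 2.87%. Fewer residual degrees of freedom are part of these fits. The other settings gave 3 to 6, beside 3.36% to 14.1% of all genes. The 12 pathway genes passing in adults became 4 with only the 2 groups compared (0.551% of all genes) and 7 with either replicate block (2.52% and 2.87%). With each array left out they became 7 to 20. There were 7 without WT adult 3 (2.68% of all genes), 19 without DN-MCU adult 3 (10.5%) and 20 without DN-MCU adult 2 (8.19%). Without both DN-MCU adult 3 and WT adult 1 there were 23 (14.1%). The 1 pathway gene passing in neonates, Chac1, became 0 with quantile normalization, array medians subtracted, no filter, only the 2 groups, either replicate block, or DN-MCU adult 3 and WT adult 1 left out. In these fits at most 0.00847% of all genes passed. The neonatal count became 3 with array weights (Chac1, Ddit3 and Trib3), beside 0.33% of all genes, and 2 with the median of probe sets, beside 0.0678%. With each array left out it was 0 to 2, beside at most 0.0593%. Of the differences between adult and neonatal effects, 0 passed, beside 0.949% of all genes. With array weights (5.5% of all genes) and without both DN-MCU adult 3 and WT adult 1 (4.89%) 1 passed, Gss each time. The number of enzymes passing between WT ages stayed within 3 to 5, beside 26.8% to 63.5% of all genes. Gsr was lost under the median of probe sets (-0.15, adjusted p = 0.552), and Gclm passed with array medians subtracted (-0.43, adjusted p = 0.0273). The Mcu difference stayed within 5.83 to 6.88. The causes of these changes were not tested. Cth has no value under the stricter filter, which removes it. Signals near the filter level (Cth, Chac1, Gsta3 and Gstt3 in WT neonates, Gsta2 in WT adults) limit how well those differences are measured.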

Other observations

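The glutathione S-transferases were also set between WT ages. Of 18 measured, 12 were higher in WT adults than in WT neonates and 0 were lower with limma, against 17.2% and 27.8% of all genes tested, and the list's median log2 difference was 1.11. The largest were Gsta3 (3.67), Gstt1 (3.58) and Gstm1 (3.11), which were chosen after their values were seen. Gsta3 averaged 3.46 in WT neonates, near the filter level of 3.35, so its difference is less well measured. Gstt3 averaged 4.12 in WT adults and 3.09 in WT neonates and reached the filter level in adults only. It entered the test through the age where it is high, so it supports nothing about the list. The list on cysteine use and sulfide oxidation had 6 of 9 higher and 2 of 9 lower in WT adults, with a median of 0.99. Over all 78 pathway genes measured, Gstt3 among them, 35 were higher and 11 lower in WT adults.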
